A study of Drosophila melanogaster with 4 samples.

Results

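The genes described here are 10 heat shock genes of the fly: the small heat shock protein genes Hsp22, Hsp23, Hsp26, Hsp27, Hsp67Ba and Hsp67Bc, the Hsp70-family gene Hsp68, the Hsp90 gene Hsp83, the J-domain co-chaperone gene DnaJ-1 and the gene of the heat shock transcription factor, Hsf. They were taken by symbol from the deposited table, where all 10 were found among 15340 genes. RNA came from whole larvae of Drosophila melanogaster, 48 h old and labelled as second instar, and was read from 2 independent extractions of each genotype. The mutants were homozygous for Xbp1ex79, an imprecise excision allele, and the controls were Xbp1+/+ larvae of a precise excision line, both derived from the insertion line Xbp1CB02061. The methods describe no heat treatment of these larvae, and nothing says how many larvae entered an extraction.

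Heat shock proteins are molecular chaperones that keep other proteins folded or hold them until they can be refolded. The small ones share an alpha-crystallin domain and bind unfolding proteins without ATP, Hsp70 and its J-domain partners bind and release them in an ATP cycle, and Hsp90 acts on nearly folded clients such as kinases and steroid receptors. Hsf switches on most of these genes in stressed cells by binding heat shock elements in their promoters. Several of the fly genes are also active in unheated animals during development, and Hsp23 and Hsp27 are known to respond to the moulting hormone ecdysone. Xbp1 is a transcription factor known for raising the folding capacity of the endoplasmic reticulum, a compartment separate from the one in which most of these chaperones work. Within the list, Hsp22 is known as a mitochondrial protein and Hsf is not a chaperone.

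The libraries held between 31416284 and 38601267 reads on genes. Of these reads the ribosomal RNA pseudogene CR41602 took 37.2% in mutant 1, 39.29% in mutant 2, 43.66% in control 1 and 39.61% in control 2. The values are normalized counts, that is reads divided by the size factor of the library, and 3 reads correspond to between 2.69 and 3.62 of them. Xbp1 itself had normalized counts of 6087 and 5953 in the mutant libraries and of 5521 and 7378 in the control libraries (log2 fold change -0.08, standard error or SE 0.21). The Xbp1ex79 deletion spans the start codon and, by the paper, the regions of the DNA-binding domain and the splice site. The paper also measured Xbp1 by quantitative PCR to check that its samples came from null larvae. Whether the rest of the gene is transcribed in these mutants was not tested, so the count given here does not settle the labels. The names mutant and control therefore stand for the label of a library throughout. The fat body genes Fbp1, Lsp1beta, Lsp2, Lsp1gamma and Lsp1alpha, known chiefly from third-instar larvae, ranked 2, 3, 4, 5 and 7 of 15340 genes by mean normalized count, and the stage of the larvae was not checked further. Summed, the fat body genes came to 7315583 and 10656991 in the mutant libraries and to 6726483 and 10092136 in the control libraries. In each genotype the library numbered 1 had the lower sum. Markers of spermatocytes, cells that a whole larva can hold, summed to 213 and 576 normalized counts in the mutant libraries and to 1943 and 796 in the control libraries. Of these 10 markers tomb was at 0 in all libraries, and 8 of the 9 tested were lower in both mutant libraries than in both control libraries, as were 27.9% of all genes tested. Gut markers summed to 32.3 and 49.2 in the mutant libraries and to 1384 and 45.8 in the control libraries, with 1333 from Jon65Aiii in control 1. The part of these differences in the values that follow was not tested, and in RNA of whole animals fewer cells of a type and less RNA per cell cannot be told apart.

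No gene of the list passed the test between genotypes, although most of them stood higher in both mutant libraries. Hsp26, Hsp67Bc, Hsp68, Hsp83, Hsf and DnaJ-1 were higher in both mutant libraries than in both control libraries. Hsp27 was lower in both. Hsp23 and Hsp67Ba had groups that overlapped, and Hsp22 had no reads. These are 6 and 1 of the 9 genes tested, where 26.2% of all 10500 genes tested stood higher and 27.9% lower in this way. By limma with Benjamini-Hochberg adjustment over the 10500 genes, 0 of the 9 were higher and 0 lower at 0.05, against 0.00952% and 0% of all genes. Before adjustment 5 of the 9 were higher and 1 was lower with p under 0.05, against 6.89% and 7.24% of all genes. That count of 5 depended on the setting: it was 3 with quantile normalization or the replicate block, 2 with the same total or without the eBayes trend, and 0 without mutant 1 or without mutant 2, where Hsp27 missed that p as well. DESeq2 on the reads behind the values called 0 of the 9, with a smallest adjusted p of 0.0809, and 1.90% of the genes it tested were higher and 1.80% lower. By edgeR 0 of the 9 were called as well. The median log2 fold change of the 9 genes was 0.55, beside -0.03 for all genes tested. The list was chosen with earlier results of these data known, so these comparisons with all genes are no test of it.

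**Figure D1:**
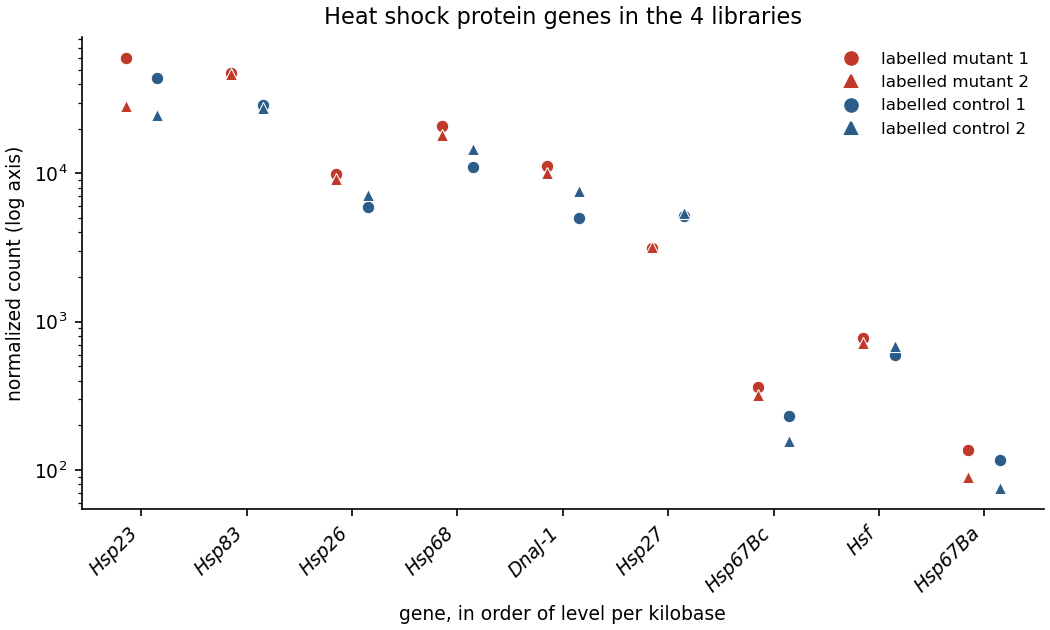
Normalized counts (log axis) of the 9 genes with reads in each of the 4 libraries, red for mutants and blue for controls, circles for replicate 1 and triangles for replicate 2. Hsp22, at 0 in every library, has no place on a log axis. The red points of Hsp83 at 47781 and 46806 lie above the blue points at 28977 and 27762, and those of Hsp27 at 3123 and 3190 lie below the blue points at 5166 and 5404.

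Hsp83 encodes the only cytosolic Hsp90 of the fly. In dm6 it occupies 3192969 to 3197059 of chromosome arm 3L, plus strand. Its normalized counts were 47781 and 46806 in the mutant libraries and 28977 and 27762 in the control libraries. Both mutant libraries were higher, and the replicates of a genotype differed by at most 1.04-fold. The log2 fold change was 0.74 (SE 0.22, 95% interval 0.17 to 1.30), that is 1.67-fold, with an adjusted p of 0.347 from limma. For 1 gene alone, 2 libraries against 2 allow no two-sided p below 0.333 in an exact permutation test, which is why a model over all genes was used.

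Hsp68 and DnaJ-1 belong to the ATP-driven arm, Hsp68 as a stress-inducible Hsp70-family protein and DnaJ-1 as a J-domain protein of the Hsp40 class that stimulates Hsp70. Hsp68 (chromosome arm 3R, 24055080 to 24057310) was counted at 20961 and 18011 in the mutant libraries and at 11066 and 14543 in the control libraries. The groups did not overlap, and the lower mutant value lay closer to the higher control value than was the case for Hsp83. Its log2 fold change was 0.62 (SE 0.23, limma adjusted p = 0.347). DnaJ-1 (chromosome arm 3L, 5750029 to 5752189) had 11176 and 10055 in the mutant libraries and 5030 and 7565 in the control libraries. The lowest library was control 1, and the control libraries differed more from each other than the mutant ones did. Its log2 fold change was 0.78 (SE 0.26, limma adjusted p = 0.347).

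Hsf, the transcription factor (chromosome arm 2R, 18130303 to 18134634), had the smallest difference of the 9. Its normalized counts were 779 and 721 in the mutant libraries and 600 and 683 in the control libraries. The groups were separate by a narrow margin, and they overlapped once each library was rescaled to the same total. The log2 fold change was 0.23 (SE 0.19, 95% interval -0.26 to 0.71, limma adjusted p = 0.543).

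**Figure D2:**
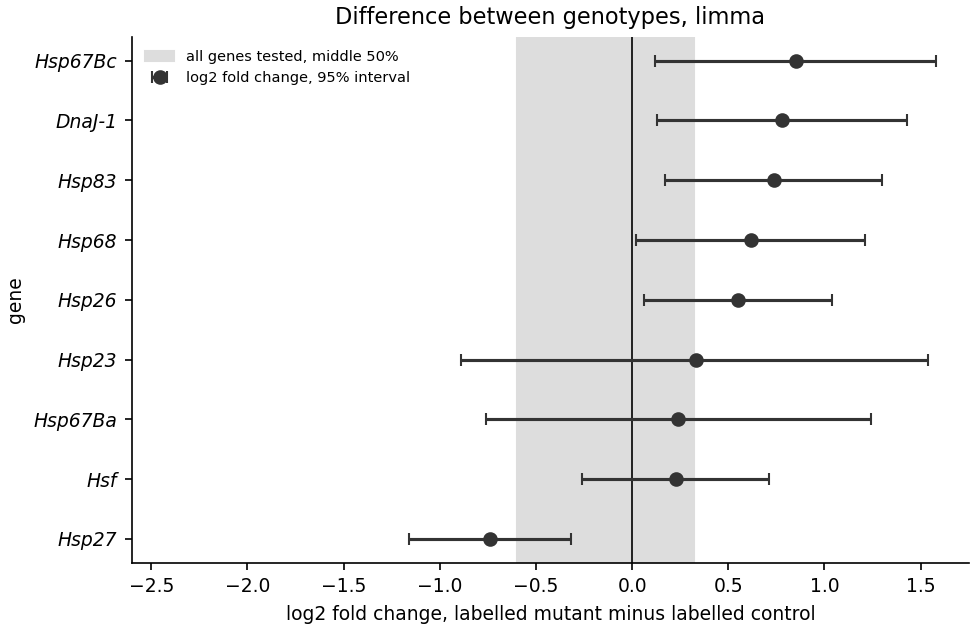
Log2 fold change (mutant minus control, horizontal axis) of the 9 genes tested, with 95% intervals from limma before adjustment. The grey band spans the middle 50% of all genes tested, from -0.60 to 0.32. Values run from -0.74 for Hsp27 to 0.85 for Hsp67Bc, and the intervals of Hsp23, Hsp67Ba and Hsf include 0.

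The 6 small heat shock protein genes lie together on chromosome arm 3L, in the group known as 67B, within 14184 bp between the left end of Hsp67Bc and the right end of Hsp27. CG4461, another gene of the alpha-crystallin family, lies among them. Their differences between the genotypes were not alike along this stretch. Hsp67Bc (9371511 to 9372497, minus strand) stood at the left end of the group and had normalized counts of 365 and 320 in the mutant libraries and of 230 and 156 in the control libraries. Both mutant libraries were higher, with a log2 fold change of 0.85 (SE 0.29, limma adjusted p = 0.347), the largest among the 9 genes. Hsp26 (9376418 to 9377427, minus strand) had 9858 and 9224 in the mutant libraries and 5970 and 7103 in the control libraries. Its groups were separate as well, and its log2 fold change was 0.55 (SE 0.19, 95% interval 0.06 to 1.04, limma adjusted p = 0.347).

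Hsp27 (9384063 to 9385694, plus strand), at the right end of the group, had the opposite sign. Its normalized counts were 3123 and 3190 in the mutant libraries and 5166 and 5404 in the control libraries. Replicates differed by at most 1.05-fold within a genotype. The log2 fold change was -0.74 (SE 0.16, 95% interval -1.16 to -0.32), which put the controls 1.67-fold above the mutants, and the adjusted p was 0.345 from limma. Its p before adjustment, 0.0059, was the smallest of the 9 genes. Hsp27 was lower by every setting tried, with log2 fold changes between -0.96 and -0.71, and its adjusted p ranged from 0.0747 to 0.999. Whether the difference of Hsp27 departs from those of its neighbours was not tested.

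Hsp23 (9381882 to 9382765, plus strand) lies just to the left of Hsp27 in the same orientation. It had normalized counts of 59720 and 28461 in the mutant libraries and of 43863 and 24673 in the control libraries. In each genotype the library numbered 1 was the higher, 2.1-fold in the mutants and 1.78-fold in the controls, so that the groups overlapped. The log2 fold change was 0.33 (SE 0.48, 95% interval -0.89 to 1.54, limma adjusted p = 0.731), and it came to -0.21 without mutant 1 and to -0.09 without control 2. Hsp67Ba (9377802 to 9379534, minus strand) had 137 and 90.2 normalized counts in the mutant libraries and 117 and 76.0 in the control libraries, again with the libraries numbered 1 above those numbered 2. Its log2 fold change was 0.24 (SE 0.39, limma adjusted p = 0.766), and -0.06 and -0.07 without the same libraries in turn. Of its exonic bases, 75.94% lie opposite the antisense RNA gene CR43481, itself at 9.9 to 16.9 normalized counts. The kit keeps the strand, but the strand setting of the counting is not given in the sources used here, so reads of the 2 genes may not have been told apart. Antisense overlap was 3.0% of exonic bases for Hsp27, 0.58% for Hsp68 and 0.51% for Hsp83.

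Hsp22 (9372931 to 9374964, plus strand) was at 0 in all 4 libraries. A count of 0 allows up to 3 reads per library, or between 2.69 and 3.62 normalized counts. All 1900 of its exonic bases (100%) are also exons of CG4456 on the same strand, the gene listed as Hsp67Bb in the deposited table, where it had 1.79 and 11.3 normalized counts in the mutant libraries and 4.50 and 13.3 in the control libraries. Of the exonic bases of Hsp67Bb, 90.09% are shared in turn. A read that falls on both genes is set aside in the usual mode of HTSeq, the counting program, but the mode used here is not given. The level of Hsp22 is therefore unknown from this table, and its 0 gives no evidence on expression.

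**Figure D3:**
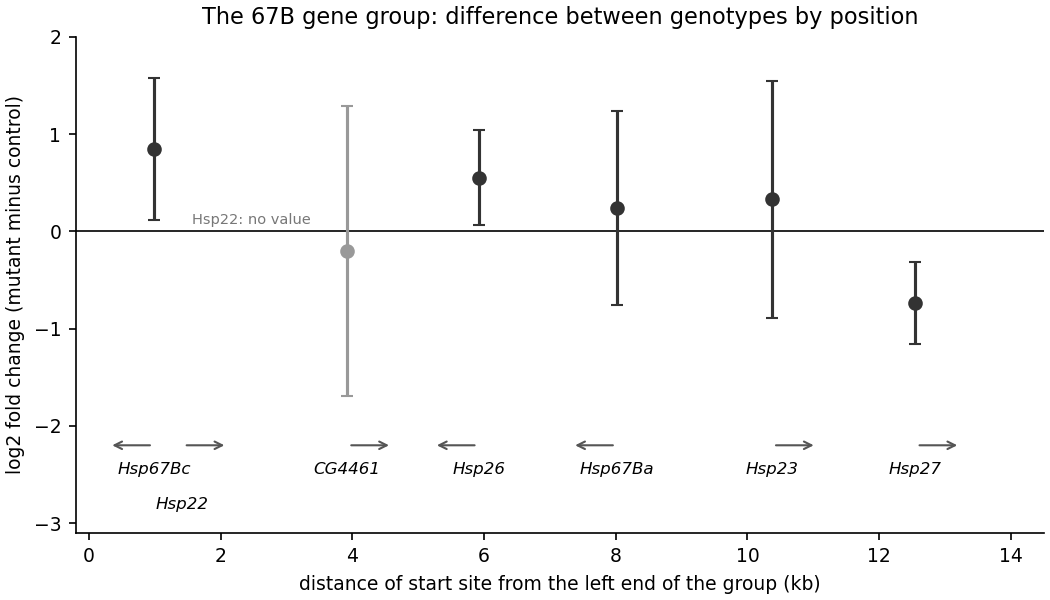
Log2 fold change (mutant minus control) of the genes of the 67B group, with 95% intervals from limma, against the distance of each start site in kb from the left end of the group. Arrows show the direction of transcription, and CG4461 (grey) is no member of the list. Hsp67Bc at 0.85 and Hsp26 at 0.55 lie above 0, Hsp27 at -0.74 lies below, and Hsp22 has no value.

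The genes differed widely in abundance. Divided by the length of all annotated exons, Hsp23 held on average 44320 normalized counts per kilobase (27910 to 67557 over the 4 libraries) and ranked 12 among 10042 protein-coding genes tested. Hsp83 followed with 12781 (rank 84), then Hsp26 with 7959 (rank 139), Hsp68 with 7237 (rank 150), DnaJ-1 with 3913 (rank 229) and Hsp27 with 2586 (rank 310). A wide gap separated these from Hsp67Bc at 271, Hsf at 239 and Hsp67Ba at 60.6 normalized counts per kilobase (ranks 2196, 2458 and 6124). Hsp23 lay above Hsp83, Hsp27 above Hsp67Bc and Hsf above Hsp67Ba in all 4 libraries with ranges that did not overlap. The other neighbours in this order had ranges that overlapped. For Hsp83 over Hsp26, Hsp26 over Hsp68 and Hsp68 over DnaJ-1 the order nevertheless held within each of the 4 libraries, while that of DnaJ-1 over Hsp27 and of Hsp67Bc over Hsf held in 3. DnaJ-1 stood below Hsp27 in control 1, at 2327 against 3166 normalized counts per kilobase.

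The Hsp70 genes proper, the classic products of heat shock, could be read only in part. Hsp70Ab, Hsp70Bb and Hsp70Bbb were at 0 in all libraries and Hsp70Aa had 1 read in one of them. These genes are near-identical copies, and reads that fit several copies can be lost in counting, so the 0 values say nothing of their expression. Hsp70Ba had normalized counts of 142 and 135 in the mutant libraries and of 52.2 and 124 in the control libraries. Hsp70Bc had 95.9 and 76.9 in the mutant libraries and 28.8 and 55.5 in the control libraries. In both genes the mutant libraries were above both control libraries, as were 26.2% of all genes tested, and control 1 was the lowest library. The log2 fold changes were 0.77 (SE 0.48) and 1.08 (SE 0.46), with adjusted p values of 0.429 and 0.347 from limma.

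Among 4 cognate genes, which cells use without stress, Hsc70-4 alone had groups that did not overlap, and 0 passed limma. Of all genes tested, 26.2% were higher and 27.9% lower with separate groups. Hsc70-4, the main cytosolic Hsp70 of unheated cells, had 40319 and 40785 normalized counts in the mutant libraries and 26427 and 25148 in the control libraries. The groups were far apart relative to the replicates, with a log2 fold change of 0.65 (SE 0.22, 95% interval 0.10 to 1.20, limma adjusted p = 0.347). Hsc70Cb, the Hsp110 gene, overlapped between groups (log2 fold change 0.09, SE 0.22), and its sign turned to -0.07 with quantile normalization. Hsc70-1 and Hsc70-2 had log2 fold changes of -0.70 (SE 0.69) and -1.19 (SE 0.64) with overlapping groups. Hsc70-2 had 1366 normalized counts in control 1, against 227, 614 and 532 in mutant 1, mutant 2 and control 2, and control 1 was also the library with the highest sum of spermatocyte markers, 1943. The part of those markers in the values of Hsc70-2 was not tested.

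Co-chaperones pass clients between Hsp70 and Hsp90 or set the pace of their ATP cycles. Of 18 such genes, all of them tested, limma called 0 higher and 0 lower. At an unadjusted p under 0.05 from limma, 3 were higher and 0 lower, beside 6.89% and 7.24% of all genes tested. The groups were separate for 6 genes that were higher and 5 that were lower, shares near the 26.2% and 27.9% of all genes. Their median log2 fold change was 0.02. Of the genes it tested, DESeq2 called 1.90% higher and 1.80% lower. Among the 18 it called 1, stv (starvin, a BAG-domain partner of Hsp70). It had 2695 and 2344 normalized counts in the mutant libraries and 822 and 1187 in the control libraries. The mutants stood well above the controls, with a log2 fold change of 1.35 (SE 0.24, limma adjusted p = 0.322, adjusted p = 0.00478 from DESeq2). Over 17 other settings the adjusted p of stv ranged from 0.00478 to 0.999, with 3 of them under 0.05. The J-domain genes jdp and CG7130 came next among the genes that stood higher. For jdp, 712 and 739 normalized counts in the mutant libraries stood against 275 and 416 in the control libraries, and for CG7130, 623 and 448 stood against 229 and 310. Their log2 fold changes were 1.10 (SE 0.27) and 0.99 (SE 0.28), both with an adjusted p of 0.347 from limma.

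The genes furthest in the other direction were HIP-R, FKBP59 and mrj. HIP-R, which encodes an Hsp70-interacting protein, had a log2 fold change of -0.80 (SE 0.32). The similarly named gene HIP went the other way with separate groups, at 0.59 (SE 0.24). Both lie on the plus strand of the X chromosome, HIP-R at 3789969 to 3792477 and HIP at 3799150 to 3801570. Whether reads fit both genes was not tested. FKBP59, an immunophilin gene, was at -0.71 (SE 0.31), and mrj, another J-domain gene, at -0.47 (SE 0.31). None of them passed the test. Hop and Cdc37, partners of Hsp90, had groups that overlapped. Hop, which links Hsp70 to Hsp90, had 1512 and 1341 normalized counts in the mutant libraries and 1724 and 1376 in the control libraries. Cdc37, which brings kinases to Hsp90, had 926 and 950 in the mutant libraries and 928 and 779 in the control libraries. The 95% intervals of their log2 fold changes were -0.62 to 0.40 and -0.34 to 0.62. Hop, Cdc37 and HIP were named after their values were seen.

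**Figure D4:**
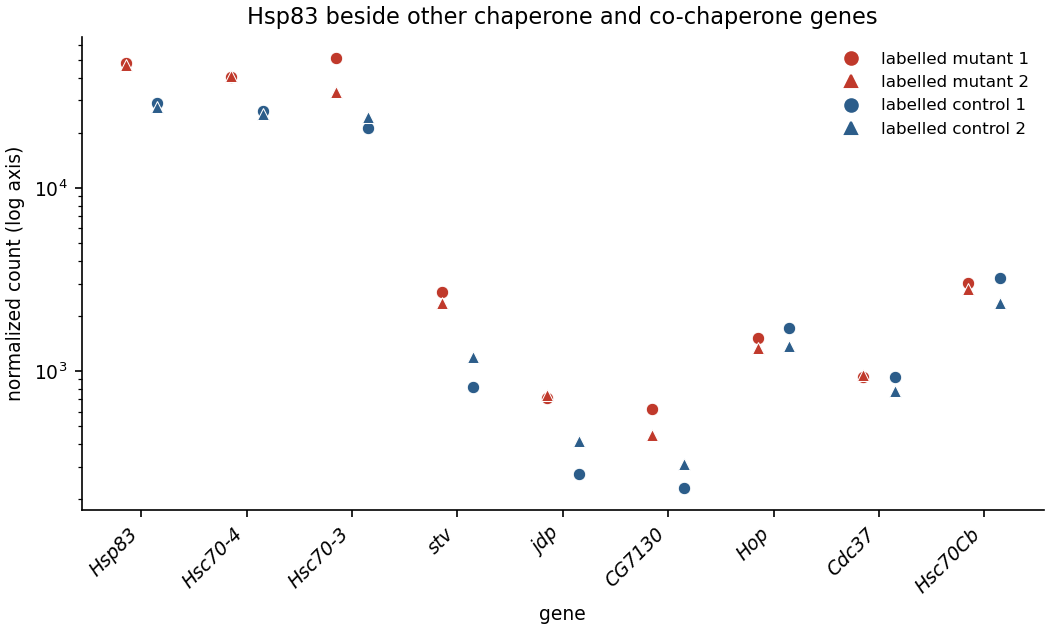
Normalized counts (log axis) of Hsp83 and of other chaperone and co-chaperone genes in each of the 4 libraries, with colours for the genotype and symbols for the replicate number. For stv the mutants at 2695 and 2344 lie above the controls at 822 and 1187, while the points of Hop, Cdc37 and Hsc70Cb overlap between the genotypes.

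The chaperone classes taken up next had medians nearer to that of all genes. The 2 Hsp70 genes proper that were tested had a median log2 fold change of 0.93. The 8 subunits of CCT, the chaperonin that folds actin and tubulin, had log2 fold changes between -0.25 and 0.27 with a median of -0.06, and none passed the test. CG7033 (0.27) and Tcp-1zeta (0.18) were higher, and Cctgamma (-0.25) and Cct5 (-0.20) lower, with separate groups. These shares of the 8 lie near the 26.2% and 27.9% of all genes. Of the other alpha-crystallin family genes CG14207 had between 4603 and 6078 normalized counts and a log2 fold change of -0.05 (SE 0.22), with overlapping groups. CG4461 and l(2)efl overlapped as well, at -0.20 (SE 0.58) and 0.49 (SE 0.80). CG7409 and CG13133, at 3.08 normalized counts or less in every library, were not tested. The stress-responsive noncoding RNA gene Hsromega had between 22349 and 37897 normalized counts and a log2 fold change of 0.12 (SE 0.34). That of the polyubiquitin gene Ubi-p63E was 0.19 (SE 0.23). Both signs turned with quantile normalization, to -0.23 and -0.04.

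Among 5 mitochondrial chaperone genes, Hsp60, CG11267 and Hsc70-5 had log2 fold changes of 0.10, 0.10 and 0.15 with overlapping groups. The signs of all 3 turned once each library was rescaled to the same total without CR41602, a ribosomal RNA pseudogene. Trap1, the mitochondrial Hsp90, had 307 and 457 normalized counts in the mutant libraries and 940 and 568 in the control libraries. Roe1, the GrpE-type partner of mitochondrial Hsp70, had 140 and 177 in the mutant libraries and 386 and 235 in the control libraries. In both genes control 1 was the highest library, as it was for the spermatocyte markers, whose part was not tested. Their log2 fold changes were -0.96 (SE 0.34) and -0.93 (SE 0.34), each with an adjusted p of 0.347 from limma.

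The 7 chaperone genes of the endoplasmic reticulum, a class known to hold Xbp1 targets, had a median log2 fold change of -0.02, and 0 passed limma. Hsc70-3, the fly BiP, had 50997 and 33400 normalized counts in the mutant libraries and 21287 and 24339 in the control libraries. Its groups were separate, with a log2 fold change of 0.86 (SE 0.29, limma adjusted p = 0.347). Cnx99A, a calnexin, was lower in both mutant libraries, at -0.26 (SE 0.17), and the other 5 overlapped. That is 1 higher and 1 lower of 7, beside 26.2% and 27.9% of all genes.

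Genes of the ecdysone response were listed because some small heat shock protein genes respond to that hormone. Of 13 tested, limma called 0, 3 were higher and 1 was lower with separate groups (26.2% and 27.9% of all genes), and the median log2 fold change was 0.24. Eip75B, a hormone-induced nuclear receptor gene, had 17907 and 15297 normalized counts in the mutant libraries and 9939 and 9327 in the control libraries, a log2 fold change of 0.78 (SE 0.20, limma adjusted p = 0.347). The nuclear receptor genes ftz-f1 and usp were at 0.47 (SE 0.25) and 0.38 (SE 0.21). Eip71CD was lower, as Hsp27 was, with 1807 and 1862 in the mutant libraries and 3608 and 3075 in the control libraries (log2 fold change -0.86, SE 0.18, limma adjusted p = 0.343). The part of the hormone response in the heat shock genes was not tested.

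**Figure D5:**
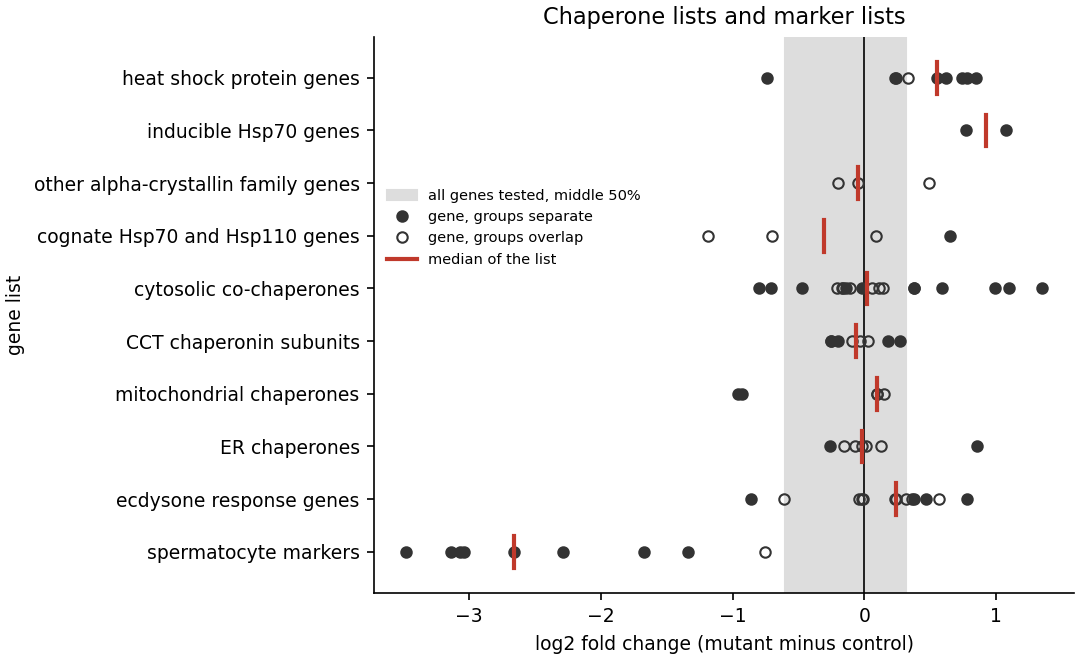
Log2 fold change (mutant minus control) of each gene tested in 10 lists, filled where the libraries of the genotypes do not overlap and open where they do, with a red bar at the median of the list. The grey band spans the middle 50% of all genes tested. The heat shock protein genes have a median of 0.55, the ER chaperones of -0.02 and the spermatocyte markers of -2.66.

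Other scalings kept most directions but moved the sizes. Hsp26, Hsp67Bc, Hsp68, Hsp83 and DnaJ-1 stayed higher and Hsp27 lower, with separate groups, under each of 3 other scalings of the libraries. Of all genes tested, 19.6% were higher with separate groups at the same total, 16.6% at that total without CR41602 and 29.4% with quantile normalization. The shares lower were 28.6%, 32.4% and 23.5% in that order. Leaving out 1 library cannot make separate groups overlap, so it was no check on the separation. The median of the 9 genes came to 0.31 with quantile normalization, where the median of all genes was 0.068, so that the gap between them narrowed from 0.58 to 0.24. In that setting Hsp68 was at 0.29, Hsp26 at 0.31 and Hsp83 at 0.49.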

How the data were processed

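Whole larvae were sequenced from 2 RNA extractions per genotype. The stranded total RNA libraries were depleted of ribosomal RNA, and their 50 nt paired reads were aligned to dm6 with TopHat (2.1.1) and counted with HTSeq (0.6.1) by the authors. What the authors deposited is a signal, the normalized count: reads on a gene over the DESeq2 size factor of the library. All values (100%) were whole multiples of 1 step, within 0.01 step, so reads could be recovered. Intervals and floors that rest on reads cover counting error only.

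The genotypes were compared with limma (3.58.1, R 4.3.3; eBayes with trend) on log2(normalized count + 1) over 10500 genes whose mean reached 10, and p values were adjusted by Benjamini-Hochberg (threshold 0.05). This scale understates fold changes of weakly counted genes. DESeq2 (1.42.0) and edgeR (4.0.16) were run on the recovered reads, and DESeq2 gave 9367 genes an adjusted p. Whether extractions are biological or technical replicates is not stated beyond their independence, so p values measure only the spread between these samples. The fits were first tested on simulated data with 200 genes changed 4-fold. Of these genes limma recovered 49.5%, DESeq2 59.5% and edgeR 52.0%, with 1, 19 and 2 false calls. Each simulated gene took its replicate spread from the trend over the real genes, without scatter around that trend or effects shared within a library. Recovery in the real libraries may therefore differ. Smaller fold changes were not simulated.

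Gene symbols were looked up in Ensembl's annotation of dm6; 11817 matched exactly, 3239 by a RefSeq synonym and 284 did not. Positions and exon lengths come from that annotation. The members and gene lists were chosen with earlier results of these data known. Named genes were every member, Xbp1, all genes of lists of 6 or fewer, and from longer lists up to 3 each of the largest positive and negative log2 fold changes with separate groups; marker lists were summarised. Hop, Cdc37, HIP, CR43481, CR41602, tomb, Jon65Aiii, the 5 fat body genes and the Hsp60 copies fall outside this rule. They were named after their values were seen. Alternatives were other pseudocounts, filters and scalings, no trend, a replicate block and leaving out each library. Promoters and proteins were not analysed here. Same-numbered libraries were not taken as pairs, since their deviations correlated at -0.443.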

Additional observations from a re-analysis of the deposited data

How the results depend on the processing

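None of the 9 heat shock genes tested passed 0.05 under any of 17 alternatives, with adjusted p values between 0.0747 and 0.999. The number higher at a raw p below 0.05, 5 in limma, was 2 with the crossed pairing, with DESeq2 and the block and with CR41602 left out of the total, and 2 without control 1. Their median log2 fold change kept its sign and came to 0.31 with quantile normalization, 0.48 with libraries rescaled to the same total and 0.40 with that total taken without CR41602, a setting chosen after seeing the data; those 3 settings put the median of all genes at 0.068, -0.102 and -0.184, against -0.032. Without each library in turn it ranged from 0.49 to 0.72; where that left 1 library in a group, it was assumed to vary like the others. Per-kilobase levels moved by less than their spread over libraries with the longest transcript in place of all exons.

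Over all genes, limma had called 0 lower and 1 higher. Other counts were 4 lower and 10 higher with the same total, 169 lower and 178 higher in DESeq2, and, for higher genes alone, 9 after quantile normalization, 3 without a filter, 2 with CR41602 left out of the total and 0 without the eBayes trend (1294 genes of either sign had a raw p below 0.05). Adding the replicate block to limma gave 0 lower and 0 higher (861 with a raw p below 0.05), and to DESeq2, a choice made after seeing the data, 92 and 92. The pairing of same-numbered libraries had a correlation of -0.443 across genes, and the crossed pairing, chosen after seeing the data, gave 1410 lower and 390 higher. Without each library in turn there were 0 to 131 lower and 0 to 39 higher, the largest numbers without mutant 2. The cause was not tested.

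Signs turned in 31 of 798 values of 47 named genes, for genes that had not passed the test. There were 12 values that passed it only under an alternative, 10 of them with the crossed pairing. With quantile normalization the turned values were 0.06 for CG4461, -0.07 for Hsc70Cb, -0.04 for Hsp60, -0.02 for Hsc70-5, -0.23 for Hsromega and -0.04 for Ubi-p63E. With the total without CR41602 they were -0.07 for Hsc70Cb, -0.05 for Hsp60, -0.05 for CG11267, -0.01 for Hsc70-5, -0.03 for Hsromega and -0.01 for Cdc37. Leaving out 1 library gave lowest and highest values of -0.21 and 0.86 for Hsp23, -0.07 and 0.54 for Hsp67Ba, -0.26 and 1.23 for l(2)efl, -0.25 and 0.15 for CG14207, -0.97 and 0.57 for CG4461, -1.58 and 0.18 for Hsc70-1, -0.14 and 0.32 for Hsc70Cb, -0.16 and 0.36 for Hsp60, -0.02 and 0.23 for CG11267, -0.26 and 0.50 for Hsromega, -0.04 and 0.42 for Ubi-p63E, -0.28 and 0.05 for Hop, and -0.29 and 0.12 for Xbp1.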

Other observations

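Hsp60B, Hsp60C and Hsp60D, copies of the mitochondrial chaperonin gene Hsp60, were looked at after their values were seen. Hsp60B, known for its need in sperm formation, had 184 and 529 normalized counts in the mutant libraries and 1280 and 523 in the control libraries. Hsp60C had 349 and 924 in the mutant libraries and 2486 and 912 in the control libraries, and Hsp60D had 51.1 and 134 in the mutant libraries and 355 and 105 in the control libraries. In all 3 copies control 1 was the highest library and mutant 1 the lowest. Mutant 2 lay close to control 2 for Hsp60B and Hsp60C and above it for Hsp60D. Spermatocyte markers had the same extremes, with sums of 1943 in control 1 and 213 in mutant 1, and with 576 in mutant 2 and 796 in control 2. The part of those markers in the values of the 3 copies was not tested. The log2 fold changes of the 3 copies were -1.39, -1.40 and -1.21, with adjusted p values of 0.354, 0.351 and 0.427 from limma and of 0.185, 0.148 and 0.296 from DESeq2. Over 17 settings the adjusted p of Hsp60B ranged from 0.0101 to 0.999, that of Hsp60C from 0.00966 to 0.999 and that of Hsp60D from 0.0204 to 0.999, under 0.05 only with the crossed pairing. Hsp60 itself had between 1559 and 2329 normalized counts and was highest in mutant 1.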
